A study of Mus musculus with 36 samples.

Results

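The nuclear genes of oxidative phosphorylation were described across 6 labelled cell populations of the mouse brain. They were taken from the mm10 gene annotation as the protein-coding genes whose symbols name subunits of complex I (Nduf), complex II (Sdh), complex III (Uqcr), complex IV (Cox) and complex V, the ATP synthase (Atp5); Ndufa4 and Ndufa4l2 are counted with complex IV. The rule found 85 annotated genes, including a second annotated Atp5o that had no transcript in the files. The 84 with a transcript were 35 of complex I, 4 of complex II, 8 of complex III, 20 of complex IV and 17 of complex V. Of the 84 with a transcript, among 25459 genes with one, 82 reached 1 FPKM in 2 or more libraries and were tested, among 13577 such genes. Cox8c and Atp5g2 did not. FPKM scales the fragments of a transcript to its length and to the mapped total of its library, so levels of different genes are given per length. Atp5s was included by its symbol; its product is a factor related to the ATP synthase and not a core subunit.

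RNA was sequenced from brain cells of C57/Bl6 mice in 36 libraries, 2 for each of 18 groups. The groups are populations C, E, A, B, D and Neg, each from olfactory bulb, cortex and brainstem, so each population has 6 libraries. All groups carry the cell type label astrocyte, and the labels name no genotype, treatment or age. How the populations were separated and what Neg stands for is not stated in them. Nor do they say that both libraries of a group are different mice, and p-values therefore cover no more than library-to-library spread, possibly technical.

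Oxidative phosphorylation is the last stage of respiration. Complexes I and II pass electrons from NADH and succinate to ubiquinone, complex III passes them to cytochrome c and complex IV to oxygen, and the proton gradient made on the way drives the ATP synthase. A few subunits are encoded in mitochondrial DNA, while most, with all of complex II, come from the nuclear genes described here. Some complex IV subunits have isoforms from separate genes that are known for use in heart and skeletal muscle, testis or lung in place of the ubiquitous form. In the brain, both neurons and astrocytes respire, and astrocytes are also known for a high rate of glycolysis.

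The nuclear FPKM of a library summed to between 21757 and 144404, and between 2103 and 10357 genes reached 1 FPKM. The ratio of coverage to FPKM, which follows the number of mapped fragments, was 0.0695 in brainstem E replicate 1 and 0.315 in olfactory bulb E replicate 1, against 1.16 or more elsewhere. Fewer than 5000 genes reached 1 FPKM in 8 libraries: 3 of E, 1 of A, 1 of D and 3 of Neg. Brainstem D replicate 2 and cortex E replicate 2 carry genes of the olfactory bulb against their labels, and results are given without them where they matter. All 15 genes of an astrocyte marker list had a median above 0 in each population; their summed level was 1680 to 3658 FPKM in C, 216 to 1152 in E, 558 to 1548 in A, 1137 to 3244 in B, 320 to 3800 in D and 52.3 to 512 in Neg. Markers of oligodendrocytes, neurons and microglia were above 0 in sum in each population as well. Oligodendrocyte sums had medians of 3034 FPKM in C, 2581 in E, 2707 in A, 1994 in B, 2516 in D and 4144 in Neg. These were above the astrocyte medians of 2513, 459, 975, 1557, 729 and 246 FPKM in the same sequence. Microglia markers had medians of 253, 21.3, 91.7, 966, 40.4 and 76.0 FPKM, and neuron markers 243, 284, 304, 119, 323 and 342 FPKM. The lists differ in their number of genes, so these sums are not shares of cells. In such bulk samples fewer cells of a type and less RNA per cell cannot be told apart.

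Complex IV held the 2 members with the highest mean level over the 36 libraries. These were Cox8a, the ubiquitous isoform of the smallest complex IV subunit, and Cox6a1, the ubiquitous form of a regulatory subunit, at 311 and 229 FPKM. Atp5b, the catalytic beta subunit of the ATP synthase, followed at 143 FPKM and Cox4i1, the main isoform of a large nuclear-encoded complex IV subunit, at 119 FPKM. A mean of 100 FPKM or more was reached by these 4 genes only, and 30 of the 84 members averaged under 10 FPKM. Values above 0 in all 36 libraries were found for 14 members, while 12 were listed at 0 in 10 or more. Values of 0 were unevenly spread over the populations: 3 to 5 members were at 0 in a C library and 12 to 40 in an E library, with 5 to 14 in A, 4 to 23 in B, 6 to 38 in D and 8 to 26 in Neg.

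**Figure D1:**
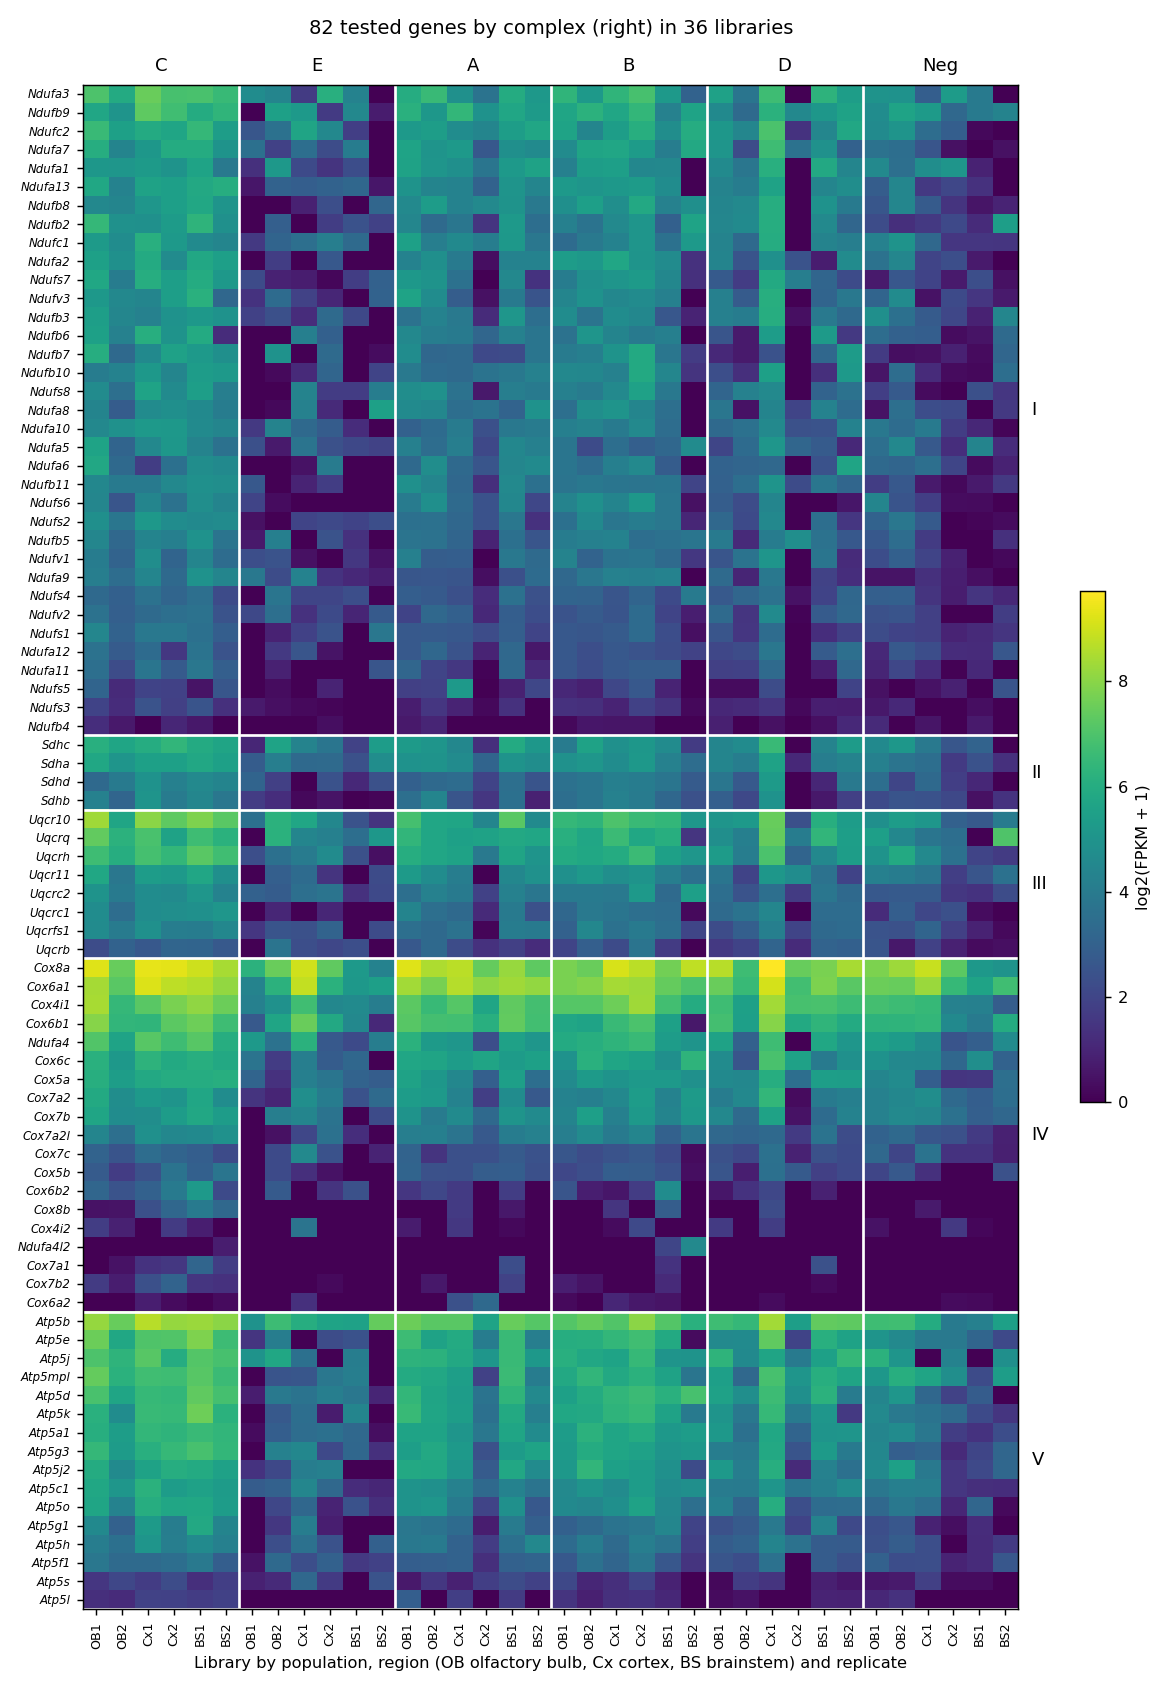
Level of each of the 82 tested genes as log2(FPKM + 1) in the 36 libraries, with genes grouped by complex and ordered by mean level, and libraries grouped by population, region and replicate. The mean over the 84 genes is 3.86 to 4.95 in the C libraries and 1.28 to 2.64 in the E libraries. The C libraries hold 3 to 5 of the 84 genes at 0 and the E libraries 12 to 40. The isoform genes near the foot of complex IV are dark in most libraries.

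Promoters are shown to let the ubiquitous and restricted isoforms of one complex IV subunit be read side by side, and to show the elements that many respiratory genes are known to carry, the sites of the factors NRF1 and of the ETS family. RefSeq promoter sequence (GRCm38.p6) matched 66 members by Ensembl gene ID or, where that failed, by symbol. In the 250 bases before the start, searched on both strands, the NRF1 core (GCGCA, any base, then GCGC) was found in 13 of 66 members (19.7%) and in 4.23% of 27025 genes with such a sequence. The ETS core CCGGAAGT was found in 3 of 66 members (4.55%) and in 3.23% of those genes. The median GC content of the window was 56.0% over 71 member promoters and 52.4% over all 32851 promoters. The shares with a motif were not matched for it. A match describes the letters and not a bound site. Below, capitals mark a match in either orientation, the sequences run toward the start, and all are on the minus strand. Cox6a1 (chr5:115348959-115349208) holds 2 NRF1 cores, Atp5h (chr11:115419920-115420169), for subunit d of the ATP synthase stalk, holds both motifs, and Uqcrh (chr4:116075071-116075320), for the hinge protein of complex III, holds the ETS core. Cox8a (chr19:7217617-7217866) and its muscle-type counterpart Cox8b (chr7:140900447-140900696) hold neither in this window.
Cox6a1: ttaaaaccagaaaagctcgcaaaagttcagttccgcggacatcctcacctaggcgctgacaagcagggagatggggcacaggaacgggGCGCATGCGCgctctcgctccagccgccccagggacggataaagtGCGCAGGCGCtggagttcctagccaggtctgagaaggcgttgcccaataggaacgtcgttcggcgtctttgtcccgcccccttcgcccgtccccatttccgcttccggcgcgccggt
Atp5h: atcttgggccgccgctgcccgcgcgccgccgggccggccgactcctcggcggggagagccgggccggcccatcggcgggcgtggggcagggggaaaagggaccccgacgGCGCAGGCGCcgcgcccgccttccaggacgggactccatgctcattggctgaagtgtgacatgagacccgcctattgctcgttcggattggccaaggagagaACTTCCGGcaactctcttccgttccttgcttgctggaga
Uqcrh: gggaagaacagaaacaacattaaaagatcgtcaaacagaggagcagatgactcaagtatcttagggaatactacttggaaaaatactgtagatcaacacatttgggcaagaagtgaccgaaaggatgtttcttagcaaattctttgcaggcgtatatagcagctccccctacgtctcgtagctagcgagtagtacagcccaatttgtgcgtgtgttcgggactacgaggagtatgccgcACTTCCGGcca
Cox8a: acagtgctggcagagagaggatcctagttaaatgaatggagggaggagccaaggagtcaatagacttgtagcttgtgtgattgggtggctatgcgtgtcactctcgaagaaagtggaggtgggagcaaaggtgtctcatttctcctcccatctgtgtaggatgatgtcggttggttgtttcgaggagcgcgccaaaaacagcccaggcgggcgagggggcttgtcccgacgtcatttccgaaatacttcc
Cox8b: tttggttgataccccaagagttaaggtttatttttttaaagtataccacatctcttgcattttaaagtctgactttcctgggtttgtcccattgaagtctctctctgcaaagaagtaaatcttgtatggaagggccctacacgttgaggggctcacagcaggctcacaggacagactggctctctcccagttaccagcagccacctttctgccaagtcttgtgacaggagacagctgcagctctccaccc

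Summed over the 84 genes, the level was highest in C. The sum was 5422 and 2268 FPKM in olfactory bulb C, 5312 and 4544 FPKM in cortex C, and 5548 and 3711 FPKM in brainstem C. In E it was 379 and 1145 FPKM in olfactory bulb, 2041 and 860 FPKM in cortex, and 433 and 546 FPKM in brainstem. The groups C and E did not overlap. Nor did they in the nuclear FPKM summed over all genes, at 85287 to 144404 in C and 21757 to 69343 in E. The medians of A, B, D and Neg were 2609, 2599, 2031 and 1174 FPKM, and the value of cortex D replicate 1, 5671 FPKM, was above every C library. As a share of nuclear FPKM, the members held 2.66% to 4.13% in C, 1.22% to 3.07% in E, 2.26% to 3.59% in A, 1.46% to 3.44% in B, 1.496% to 4.38% in D and 1.40% to 3.19% in Neg. On that scale C and E overlapped through cortex E replicate 1, at 3.07%, whose members' level came to 70.3% from complex IV.

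**Figure D2:**
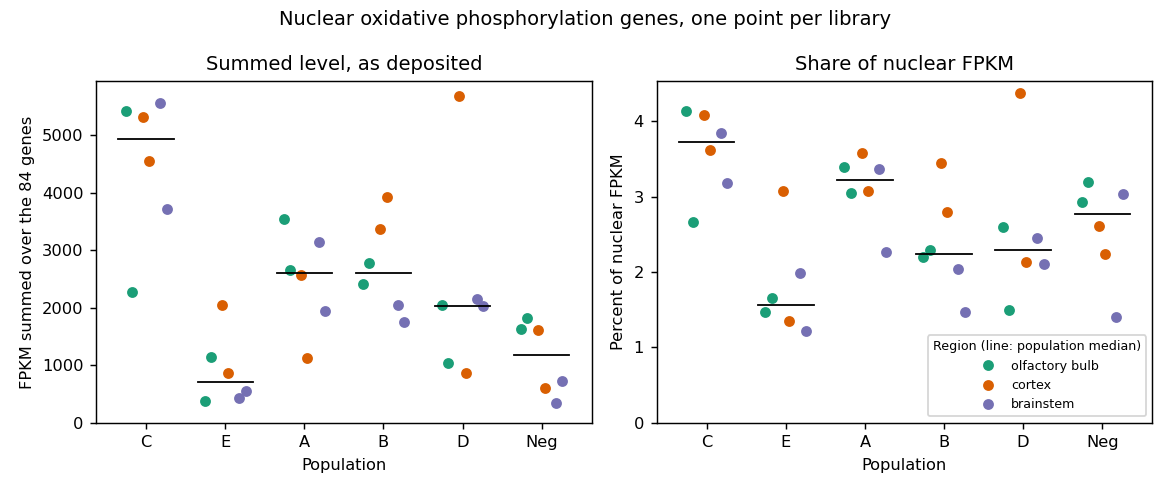
FPKM summed over the 84 genes (left) and their percent of all nuclear FPKM (right), a point per library coloured by region, with a line at each population's median. The median sum is 4928 FPKM in C and 703 in E, and the share ranges from 1.22% in a brainstem E library to 4.38% in cortex D replicate 1.

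C and E were picked for comparison with earlier results of these data known, in which members were high in C and low in E. The counts for C and E therefore describe that pattern and are no separate support for it. The comparison of C with the other lettered populations asked which members set C apart. Of 82 tested members, 40 were higher in C and none was lower (0 lower also at an unadjusted p under 0.05), against 7.6% of all tested genes called higher and 0.00737% called lower (limma, adjusted p under 0.05). The median difference over members was 1.49 in log2(FPKM + 1), against 0.39 over all genes, and 78 members had a positive difference in all 3 regions. C had the highest population median for 80 of the 82 members, and after rescaling for 55, with A highest for 14. Called genes came from every complex: 13 of 35 in complex I, 2 of 4 in complex II, 6 of 8 in complex III, 6 of 19 in complex IV and 13 of 16 in complex V. The rise was measured on the deposited scale; after each library was rescaled to the same nuclear sum, 1 member was called against 0.00737% of all genes, though the members' median stayed at 1.37 beside 0.46 over all genes.

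Atp5e, the epsilon subunit of the ATP synthase rotor stalk, had the largest difference. Its levels in C were 183.6 and 54.1 FPKM in olfactory bulb, 128.5 and 132.9 FPKM in cortex, and 228.3 and 100.6 FPKM in brainstem. In the 24 libraries of the other lettered populations they ran from 0 through a median of 35.6 to 160.2 FPKM. The C libraries lay above that median without exception, and the ranges overlapped. The difference was 2.61 ± 0.63 in log2(FPKM + 1) (SE; limma, adjusted p = 0.018).

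Among complex I genes, Ndufs7, an iron-sulfur subunit near the ubiquinone site, had 54.1 and 15.98 FPKM in olfactory bulb C, 65.8 and 42.0 FPKM in cortex C, and 61.9 and 35.1 FPKM in brainstem C. Its range over the other lettered libraries was 0 to 59.3 FPKM with a median of 7.54. The ranges overlapped, since A, B and D hold libraries above the lowest C library, and the difference was 2.34 ± 0.50 (SE; limma, adjusted p = 0.0141). Ndufa2, an accessory subunit of the NADH-oxidising arm, differed by 2.32 ± 0.53, and the membrane-arm subunits Ndufb7 and Ndufb2 by 2.20 ± 0.57 and 2.13 ± 0.62. Ndufs1, the largest core subunit, was higher in C by 1.57 ± 0.43, while Ndufv1, which binds NADH, had a difference of 1.28 ± 0.51 that was not called (adjusted p = 0.0996).

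In complex III, Uqcrc1, a core protein of the matrix side, was at 25.5 and 10.03 FPKM in olfactory bulb C, 25.5 and 26.5 FPKM in cortex C, and 28.1 and 33.2 FPKM in brainstem C. The other lettered libraries ran from 0 to 20.8 FPKM with a median of 9.14. All C libraries except olfactory bulb C replicate 2 were above that range. The difference was 2.21 ± 0.47 (SE; limma, adjusted p = 0.0141), and the Rieske iron-sulfur protein Uqcrfs1 differed by 1.49 ± 0.41. In complex II, the flavoprotein Sdha and the iron-sulfur subunit Sdhb were higher by 1.38 ± 0.44 and 1.88 ± 0.45. The Sdha call was lost in 39 of 48 alternatives, and the Sdhb call in 11 of 48. Both catalytic-head subunits of the ATP synthase were higher too, Atp5a1 (alpha) by 1.78 ± 0.43 and Atp5b (beta) by 1.33 ± 0.38, with Atp5mpl, a small membrane proteolipid, at 2.27 ± 0.56. The genes Atp5g1 and Atp5g3, which encode the same rotor-ring subunit, rose by 1.92 ± 0.46 and 1.96 ± 0.52.

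The 4 complex IV genes of highest mean level were not among those called in C. Cox8a, Cox6a1, Cox4i1 and Cox6b1 had differences of 1.00, 0.99, 1.16 and 1.30 with adjusted p between 0.0554 and 0.119 (limma), whereas Cox5a, the subunit near the matrix side, rose by 1.53 ± 0.38 (SE; limma, adjusted p = 0.0202). Cox7a2l, a gene related to Cox7a2, rose by 1.48 ± 0.33.
The C calls rest on few libraries: without olfactory bulb C replicate 1, cortex C replicate 1 or brainstem C replicate 1, 2, 3 or 4 members were called, without cortex C replicate 2 or brainstem C replicate 2 15 or 22, and without cortex D replicate 1 66. All C libraries have lower library numbers than the D and E libraries, and within that first number series, with C set against A and B alone, 0 members were called higher (27 at an unadjusted p under 0.05, median difference 0.60), nor was any other gene.

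The comparison of E with the other lettered populations asked the same of E. Of the 82 members, 68 were lower in E and none was higher (0 also at an unadjusted p under 0.05), against 42.5% of all tested genes called lower and 0.103% called higher (limma, adjusted p under 0.05). The median difference was -1.95 over members and -0.66 over all genes, and 74 members had a negative difference in all 3 regions. E had the lowest median of the lettered populations for 71 members, and 15 members had a median of 0 there. After rescaling, 43 members were lower and none higher, against 22.8% and 1.08% of all genes, with medians of -1.93 over members and -1.05 over all genes.

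The ATP synthase had the most negative median of the complexes. Its 16 tested genes were at -2.72, and 14 of them were called lower, against medians of -2.03 in complex I (32 of 35 lower), -2.01 in complex III (7 of 8), -1.61 in complex IV (12 of 19) and -1.40 in complex II (3 of 4). After rescaling the medians were -2.79, -2.07, -1.49, -1.10 and -0.64 in the same sequence of complexes, with 13, 17, 4, 8 and 1 genes called. No test compared the complexes with each other.

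**Figure D3:**
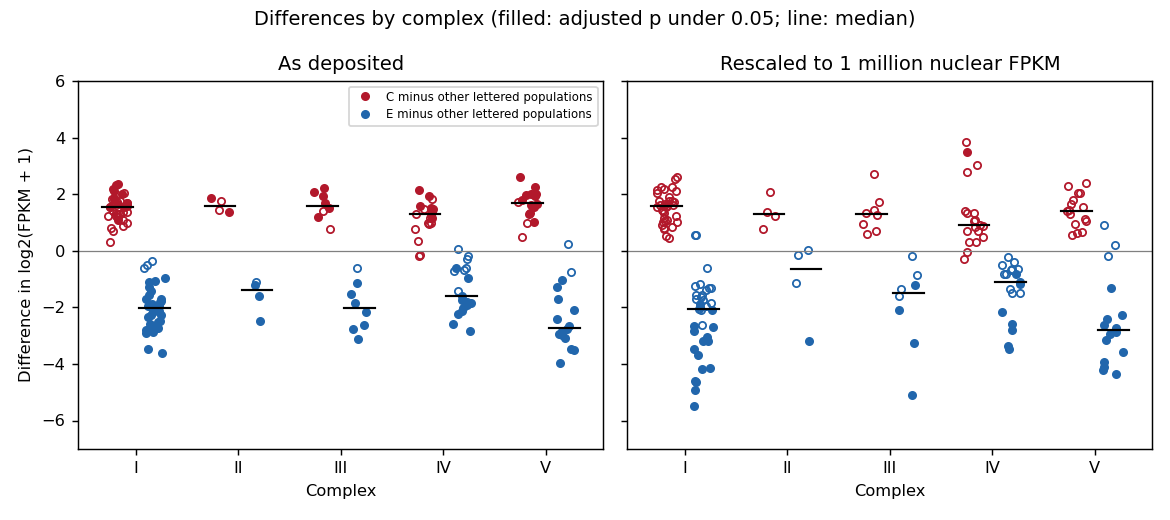
Difference in log2(FPKM + 1) of each tested gene by complex, for C (red) and E (blue) against the other lettered populations, with deposited FPKM (left) and after rescaling (right); filled points are called, and lines are medians. On the deposited scale the E medians run from -2.72 in complex V to -1.40 in complex II, and after rescaling only Cox7b2 is called in C.

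Atp5e had 1.86 and 16.2 FPKM in olfactory bulb E, 0 and 3.72 FPKM in cortex E, and 4.42 and 0 FPKM in brainstem E. In the 24 libraries of A, B, C and D it ran from 0.226 through a median of 66.1 to 228.3 FPKM. The E libraries were below that median in each case, and cortex A replicate 2, brainstem B replicate 2 and cortex D replicate 2 fell within their range. Its difference was -3.98 ± 0.63 (SE; limma, adjusted p = 9.32e-05), and after rescaling -4.36 ± 0.87 (adjusted p = 0.00144). Atp5k, for the membrane subunit e, and Atp5mpl fell by 3.49 ± 0.55 and 3.52 ± 0.56. The alpha subunit gene Atp5a1 fell by 3.07 ± 0.43 and Atp5d, for the delta subunit, by 2.98 ± 0.48.

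The beta subunit gene Atp5b behaved differently with scale. It had 30.1 and 99.9 FPKM in olfactory bulb E, 65.8 and 48.5 FPKM in cortex E, and 46.0 and 169.7 FPKM in brainstem E, against 42.1 to 401.0 FPKM with a median of 159.4 in A to D. The E values except brainstem E replicate 2 were under that median. The difference was -1.27 ± 0.38 (SE; limma, adjusted p = 0.0114) as deposited and -0.17 ± 0.22 after rescaling (adjusted p = 0.585). Sdha showed the same pattern, at -1.1989 ± 0.44 (adjusted p = 0.0291) and -0.15 ± 0.37 (adjusted p = 0.775), and with rescaling and length adjustment together Atp5b and Sdha were at 1.21 and 0.98.

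Uqcrc1 was listed at 0 in 4 of 6 E libraries and had 1.07 FPKM in olfactory bulb E replicate 2 and 1.09 FPKM in cortex E replicate 2. Over A to D its level ran from 0 to 33.2 FPKM with a median of 10.7. The E values were near the foot of that range, and the difference was -3.11 ± 0.47 (SE; limma, adjusted p = 5.57e-05). Ndufa2 was likewise listed at 0 in 4 E libraries and had 2.43 FPKM in olfactory bulb E replicate 2 and 5.34 FPKM in cortex E replicate 2, against a median of 24.8 FPKM in A to D; it fell by 3.49 ± 0.53. Ndufb8, a membrane-arm subunit, fell by 3.60 ± 0.52.

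In complex IV, Cox8a had 73.6 and 178.0 FPKM in olfactory bulb E, 507.0 and 158.8 FPKM in cortex E, and 36.5 and 18.9 FPKM in brainstem E, against 101.7 to 835.5 FPKM with a median of 352.6 in A to D. Only cortex E replicate 1 was above that median. The difference was -1.75 ± 0.38 (SE; limma, adjusted p = 0.00119), and after rescaling -0.66 ± 0.27 (adjusted p = 0.0701). Cox6a1 fell by 1.92 ± 0.37 and Cox4i1 by 2.24 ± 0.38, both called after rescaling as well. With rescaling and an adjustment for length together the signs of these abundant genes turned, to 1.01 for Cox8a, 0.84 for Cox6a1 and 0.50 for Cox4i1. Cox7a2l fell by 2.58 ± 0.33 and Cox5a by 2.03 ± 0.38.

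The 14 members not called in E were Ndufa9, Ndufb4, Ndufv2, Sdhc, Uqcrb, Cox4i2, Cox6a2, Cox6b2, Cox7a1, Cox7c, Ndufa4, Ndufa4l2, Atp5f1 and Atp5s. Their differences ran from -1.44 in Ndufa4, now placed in complex IV, to 0.24 in Atp5s.
Markers of several cell types moved with these groups too. In these fits 42.5% of all tested genes were lower in E and 7.6% higher in C. Lower in E were 14 of 15 astrocyte markers, 10 of 10 microglia markers and 5 of 5 blood genes. Higher in C were 12 of 15 astrocyte markers. Of 12 neuron markers 1 was lower in E and none was called in C. Of 6 oligodendrocyte precursor markers, 6 were lower in E and 3 higher in C. Of 8 endothelial and pericyte markers 4 were lower in E and 1 higher in C, both near the shares of all genes. The mean log2(FPKM + 1) of the oligodendrocyte markers was highest in B, with medians of 5.12 in C, 4.72 in E, 4.83 in A, 5.57 in B and 5.15 in D. Of 4 choroid plexus and ependyma markers, 2 were higher in C and 3 lower in E. Their summed level was 35.7 to 23731 FPKM in C (median 2024, at most 16.4% of nuclear FPKM), with Ttr alone at up to 23601 FPKM, and 0 to 457 FPKM in E (median 92.2). The level of the 3 mitochondrially encoded transcripts estimated in all libraries was 6.31 to 52.2 times the members' summed level in E, 0.967 to 3.64 times in C, and 6.05 to 156 times in Neg, and FPKM shares its total with them. The part of these in the members' differences was not tested. Without the 8 libraries under 5000 genes, 38 members were lower in E and 8 higher in C, beside 11.5% and 0.383% of all genes, and with E set against D alone within the second number series 0 were called (26 at an unadjusted p under 0.05, median -1.42), nor was any other gene.

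Set against E directly, C was higher for 74 of 82 members and lower for none (0 also at an unadjusted p under 0.05), beside 43.7% of all genes called higher and 0.0737% called lower. The median difference was 2.70 over members and 0.84 over all genes. After rescaling it was 2.77 over members and 1.2004 over all genes, with 43 members called beside 16.7%. Atp5e differed by 5.27 ± 0.80 (SE; limma, adjusted p = 7.87e-05), Ndufa2 by 4.65 ± 0.67, Atp5mpl by 4.63 ± 0.70 and Atp5k by 4.39 ± 0.70. For these 4 genes the difference after rescaling was 5.42, 6.48, 4.90 and 4.82. C and E share no number series, so a series difference and a population difference cannot be told apart here, and with a term for the series 0 members were called (26 at an unadjusted p under 0.05).

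Against Neg, the mean of the lettered populations was higher for 33 of 82 members and lower for none (0 also at an unadjusted p under 0.05), beside 20.2% of all genes called higher and 0.14% called lower (limma, adjusted p under 0.05). The median difference was 1.15 over members and 0.50 over all genes. It was 0.27 over members in olfactory bulb (54 higher and 27 lower), 1.38 in cortex and 1.79 in brainstem, and 51 members were positive in all 3 regions. Complex V had 9 of 16 called and complex I 14 of 35, while complex IV had 4 of 19 with a median of 0.57. The leading genes were mostly of complex I: Ndufa7, an accessory subunit, at 2.66 ± 0.52 (SE; limma, adjusted p = 0.00124), Ndufa9 at 2.20 ± 0.50, Ndufc2 at 2.14 ± 0.46, Ndufs7 at 2.08 ± 0.49, Ndufb7 at 2.01 ± 0.56, Ndufs8 at 1.99 ± 0.53 and Ndufa13 at 1.98 ± 0.56. Atp5d differed by 2.37 ± 0.47.
Ndufa7 ran from 0 through a median of 28.5 to 102.4 FPKM in the 30 lettered libraries and from 0 through 2.65 to 11.6 FPKM in the 6 Neg libraries, so that the Neg values lay in the lower part of the lettered range. After rescaling, 2 members (Ndufa7 and Ndufc2) were higher and none lower, beside 2.59% and 0.921% of all genes, and without cortex Neg replicate 2 the count was 7 on the deposited scale (19 without olfactory bulb Neg replicate 1 or brainstem Neg replicate 2).

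The shares of the complexes within the members' own summed level do not depend on the scaling of a library. Complex I held 22.1% to 25.2% in C, 11.7% to 26.0% in E, 17.6% to 25.4% in A, 20.4% to 27.0% in B, 11.9% to 25.8% in D and 11.7% to 22.8% in Neg. Complex IV held a median of 34.1% in C, 39.1% in E, 41.8% in A, 36.1% in B, 40.9% in D and 48.0% in Neg, and complex V one of 27.2%, 20.5%, 22.8%, 25.3%, 22.8% and 19.2% in the same sequence of populations. The C libraries were close together and the E libraries far apart: complex IV ranged from 30.4% to 39.8% in C and from 21.4% to 70.3% in E. No test was made on these shares.

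Isoform genes of complex IV with restricted known use were low, and several were above 0 in more libraries of C than of any other population. Cox8b, the heart and muscle counterpart of Cox8a in mice, had 0.40 and 0.43 FPKM in olfactory bulb C, 4.12 and 8.51 FPKM in cortex C, and 14.6 and 8.79 FPKM in brainstem C. It was listed at 0 in all 6 E libraries and in 5 of 6 Neg libraries; in A, B and D it was above 0 in 5 of 18, at up to 6.25 FPKM in brainstem B replicate 1. All C libraries were thus above 0, those of cortex and brainstem well above those of olfactory bulb. The difference for C was 1.94 ± 0.31 (SE; limma, adjusted p = 0.00378), but 3.83 ± 0.79 after rescaling was not called (adjusted p = 0.0682). Cox8b made up a median of 0.972% of the Cox8a and Cox8b level in C.

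Cox7b2, the testis counterpart of Cox7b, is named because its values stood out when seen. It had 2.18 and 0.70 FPKM in olfactory bulb C, 4.13 and 7.49 FPKM in cortex C, and 1.84 and 1.61 FPKM in brainstem C. It was 0 in 5 of 6 E libraries and 0.19 FPKM in the other, 0 in all Neg libraries, and reached 2.74 FPKM in brainstem A replicate 1. Every C library held it, and brainstem A replicate 1, olfactory bulb B replicate 1 and brainstem B replicate 1 fell within the C range. The difference was 1.57 ± 0.21 (SE; limma, adjusted p = 0.000435) as deposited and 3.49 ± 0.59 after rescaling (adjusted p = 0.0376), where it was the only gene of all tested that was called in C.

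Cox7a1, the heart and muscle counterpart of Cox7a2, was 0 and 0.40 FPKM in olfactory bulb C, 1.69 and 1.95 FPKM in cortex C, and 7.99 and 2.37 FPKM in brainstem C. Elsewhere it was above 0 in 3 libraries only, all brainstem: A replicate 1 (3.94 FPKM), B replicate 1 (1.67 FPKM) and D replicate 1 (4.25 FPKM). The difference for C was 1.15 ± 0.27 (SE; limma, adjusted p = 0.017). Cox6b2, the testis counterpart of Cox6b1, was between 3.51 and 37.2 FPKM in the C libraries with a median of 7.58, between 0 and 25.2 FPKM in the other lettered libraries with a median of 1.26, and at 0 in all Neg libraries. Its difference was 2.13 ± 0.52 (adjusted p = 0.0191). As shares of the level of each pair, Cox8b, Cox7b2, Cox7a1 and Cox6b2 had their highest medians in C. Single libraries reached 35.7% for Cox6b2 and 3.06% for Cox8b in B, and 22.6% for Cox7a1 in D. The highest C libraries were at 16.3%, 2.85% and 13.2% for these, while for Cox7b2 the highest share, 15.8%, was in C. Cox4i2, the lung counterpart of Cox4i1, had a difference of 0.36 ± 0.37 for C and 0.06 ± 0.37 for E, and its highest value was 12.2 FPKM in cortex E replicate 1.

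**Figure D4:**
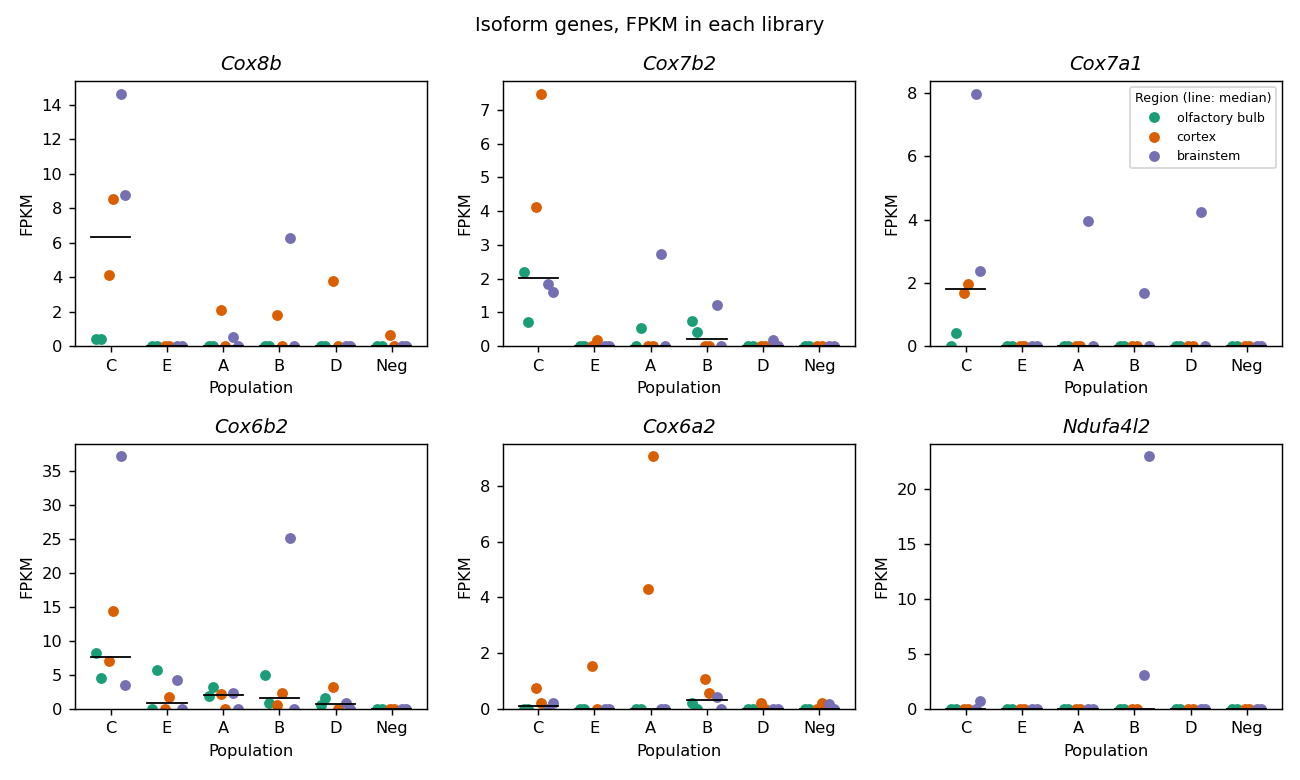
FPKM of 6 isoform genes of complex IV in each library, by population and coloured by region, with a line at each median. Cox8b and Cox7b2 are above 0 in all 6 C libraries, Cox6a2 is highest in cortex A (4.29 and 9.06) and Ndufa4l2 in brainstem B (3.09 and 22.9).

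Regions were compared over the lettered populations, and few members differed. For olfactory bulb against cortex, 1 member was lower and none higher, beside 0.656% and 3.08% of all genes. For olfactory bulb against brainstem, 2 were lower and none higher, beside 1% and 4.19%, and for cortex against brainstem, 1 was higher and 1 lower, beside 1.27% and 0.486% (limma, adjusted p under 0.05). The median differences over members were -0.08, 0.19 and 0.19. All of the called genes are isoform genes.

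Cox6a2, the heart and muscle counterpart of Cox6a1, was above 0 in 8 of 10 cortex libraries of the lettered populations at up to 9.06 FPKM, in 1 of 10 olfactory bulb libraries and in 2 of 10 brainstem libraries. Cortex A stood above the rest at 4.29 and 9.06 FPKM, followed by cortex E replicate 1 at 1.54 FPKM and cortex B replicate 1 at 1.09 FPKM. No library outside cortex reached 1 FPKM, so the gene was tested only through the region where it is high. Its tests therefore restate those cortex libraries and give no separate support for them. The difference of Cox6a2 was -0.99 ± 0.17 for olfactory bulb minus cortex (SE; limma, adjusted p = 0.000387) and 0.94 ± 0.17 for cortex minus brainstem (adjusted p = 0.0014). Cox7a1 was lower in olfactory bulb than in brainstem, at -1.05 ± 0.26 (adjusted p = 0.0148).

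Ndufa4l2, a paralog of Ndufa4 known to be induced by low oxygen and expressed in pericytes, was found in 3 libraries: brainstem B replicate 1 (3.09 FPKM), brainstem B replicate 2 (22.9 FPKM) and brainstem C replicate 2 (0.71 FPKM). It was listed at 0 in the other 33. Only the 2 brainstem B libraries reached 1 FPKM, so the gene was tested only through the group where it is high. Its tests therefore restate those 2 libraries and give no separate support for them. Its difference was -0.74 ± 0.19 for olfactory bulb minus brainstem (SE; limma, adjusted p = 0.0191) and the same for cortex minus brainstem (adjusted p = 0.0397), and it was the only member called in the population by region test (limma F test, adjusted p = 0.0274, beside 0.11% of all genes). The cortex minus brainstem call was lost in 27 of 47 alternatives (adjusted p between 4.38e-06 and 0.12 over all of them). The F test called no member after rescaling, nor when any of 11 single libraries was left out, brainstem B replicate 2 among them. Ndufa4 itself had 40.2 and 31.5 FPKM in brainstem B. Of the pericyte genes Pdgfrb and Rgs5, brainstem B had 3.15 and 0 FPKM of Pdgfrb and 8.52 and 14.5 FPKM of Rgs5, while Rgs5 reached 37.3 FPKM in olfactory bulb B replicate 2, where Ndufa4l2 was at 0. The part of pericytes was not tested.

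Members have short transcripts, and length was compared for that reason. The leading transcript of a member ran from 292 to 2859 bases with a median of 644. Members under 500 bases had a median difference of 1.73 in C and -2.03 in E, and those of 1000 to under 2000 bases one of 1.48 and -1.56. All genes of the same classes had medians of 0.50 and -0.65 under 500 bases and 0.44 and -0.70 at 1000 to under 2000 bases. Members thus lay beyond all genes of their length in each class on the deposited scale, while after rescaling the members of 1000 to under 2000 bases and all genes of that length had E medians of -1.30 and -1.36. With levels adjusted for length, 34 members were lower and 2 (Cox6a2 and Atp5s) higher in E, beside 6.13% and 6.92% of all genes, and for C against E 43 were higher and 2 lower, beside 6.9% and 9.84%. Against Neg 9 were then higher and none lower, beside 3.88% and 2.53%, and 0 were called in C (43 higher at an unadjusted p under 0.05).

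**Figure D5:**
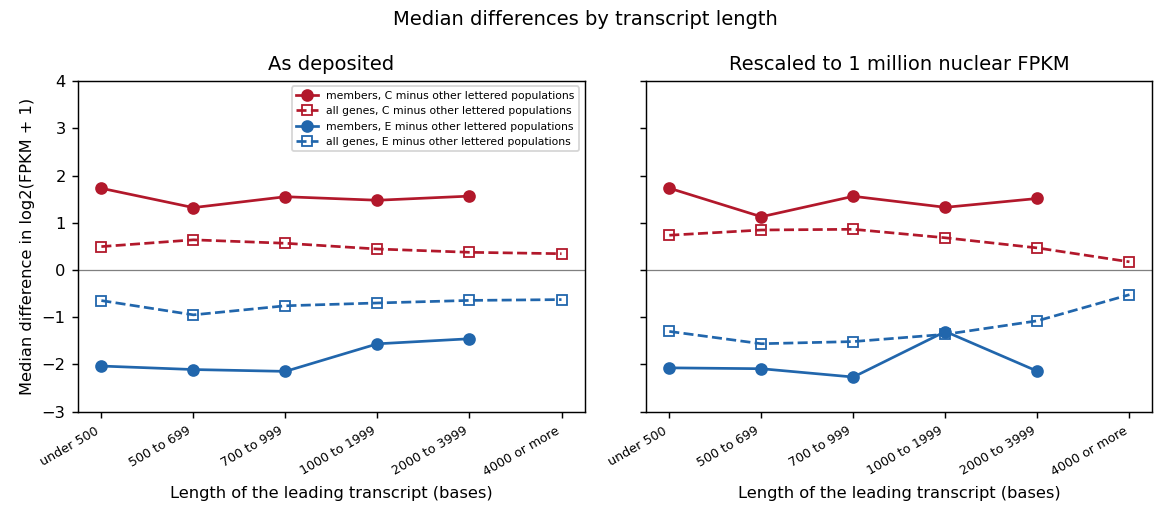
Median difference in log2(FPKM + 1) by length of the leading transcript, for members (filled circles) and all tested genes (open squares), in C (red) and E (blue) against the other lettered populations, with deposited FPKM (left) and after rescaling (right). With deposited FPKM the members lie beyond all genes in each of the 5 classes that hold members, and after rescaling the E medians at 1000 to under 2000 bases are -1.30 and -1.36.

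Members are also abundant, and with deposited FPKM the median differences of all genes were larger in the higher level classes. Among genes averaging 10 to 30 FPKM, 18 of 33 members were higher in C beside 16.4% of 985 genes, and 33 of 33 were lower in E beside 59.3%. Among genes of 30 FPKM or more, 9 of 21 members were higher in C beside 28.4% of 285 genes, and 19 of 21 lower in E beside 71.6%. The median differences of members in that top class were 1.73 in C and -2.27 in E, beside 1.04 and -1.47 for all its genes. After rescaling all genes showed no such rise with level, with E medians of -1.03 under 1 FPKM and -0.39 at 30 FPKM or more, and the members of the top class had medians of 1.30 in C and -1.999 in E, beside 0.38 and -0.39.

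Other genes of energy metabolism were counted in the same fits, where 7.6% of all tested genes were higher in C and 42.5% lower in E. Of 15 glycolysis genes, 11 were higher in C and 14 lower in E, with medians of 1.504 and -1.69. Of 14 genes of the tricarboxylic acid cycle, 3 were higher in C and 11 lower in E. Of 48 assembly factors of the 5 complexes, 8 were higher in C and 22 lower in E, the second close to the share of all genes, and of 73 mitochondrial ribosomal proteins 17 and 44. Cytosolic ribosomal proteins gave 6 of 70 higher in C with a median of 0.65 and 48 of 70 lower in E with a median of -1.07. Of 11 regulators of nuclear respiratory genes, none was called in C and 5 were lower in E, again close to the share of all genes. None of these lists had a member called in the opposite direction on the deposited scale, and after rescaling none of their genes was called in C.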

How the data were processed

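RNA of 36 libraries was amplified with a kit that primes with random and oligo(dT) primers and does not mark strand, per the labels' protocols, so overlapping antisense genes cannot be told apart. The authors used bcl2fastq 1.8.3, TopHat and Cufflinks (versions of the last 2 not given in the sources used here) with mm10, per the submitters' processing notes. Each deposited table gives FPKM, estimated by Cufflinks per transcript, with the transcript's length and its coverage signal, per the file headers. FPKM values are not counts, so no count test was run, and depth was followed only by the ratio of coverage to FPKM (0.0695 to 4.08).

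Of 63241 transcripts, 52543 (83.1%) were assigned to genes by locus in mm10 (overlap score of 0.5 or more, leading by 0.1), holding 89.2% to 96.3% of nuclear FPKM, and FPKM was summed per gene. Genes at 1 FPKM in 2 libraries were tested on log2(FPKM + 1) in R 4.3.3, using limma 3.58.1, with 18 group means, a trended prior, 18 residual degrees of freedom and Benjamini-Hochberg adjustment over 13577 genes; called means adjusted p under 0.05. Differences on this scale understate those of low genes. C was compared with the mean of A, B, D and E, and E with that of A to D. Alternatives were rescaling to a nuclear sum of 1000000, quantile normalization, a loess adjustment for transcript length, a pseudocount of 0.1, no filter, the highest transcript per gene, a term for the library number series, and libraries left out. Full statistics were given for the 8 members with the largest called differences of the same sign in all 3 regions (4 for C against E and for pairs of regions), for fixed isoforms and for fixed core subunits. The members, the lists and the populations C and E were chosen with earlier results of these data known. Fits were tested on simulated data for C against the other lettered populations. Of 100 genes given a log2 difference of 1, 19% were recovered, and of 100 given 2, 77%. A gene not called is therefore not shown to be equal. Tables and figures used Python 3.11.15, pandas 2.3.3, numpy 2.4.6 and matplotlib 3.10.9.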

Additional observations from a re-analysis of the deposited data

Results flagged for a closer look

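The summed level of the members in cortex D replicate 1 was 5671.2273 FPKM, far from the other D libraries, of which the next held 2154 FPKM and the lowest 868 FPKM. The share of complex I in the members' level stood apart in 3 libraries, all of cortex: 11.7124% in E replicate 1 (next 22.4%), 11.9404% in D replicate 2 (next 21.1%) and 11.6506% in Neg replicate 1 (next 18.6%). Chance flags about 1 in 20 groups where values are alike and groups are separate, and 4 of 30 were flagged. Each group here mixes 3 regions, and the quantities share their values, so that rate is no measure for this count. Population differences of Ndufa4l2 differed between regions (limma F test, adjusted p = 0.02742), through the 2 brainstem B libraries, which alone brought the gene past the filter.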

How the results depend on the processing

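Members called in C against the other lettered populations numbered 40, and 1 after rescaling, 2 with quantile normalization, 0 with length adjustment, 7 with a pseudocount of 0.1, 21 with no filter, 0 with a term for the number series, 0 with rescaling and length adjustment together, 8 without the libraries under 5000 genes and 0 in the first number series alone. For E (68) they were 43, 30 and 36 (34 lower and 2 higher) with the first 3 of these, 4 with the series term, 17 with rescaling and length together (14 lower and 3 higher), 38 without the libraries under 5000 genes and 0 in the second series alone. For C against E (74) they were 43, 36 and 45 (43 higher and 2 lower) with the first 3, 0 with the series term and 7 with rescaling and length together. Against Neg (33) they were 2, 4 and 9, then 21 with the highest transcript, 0 with rescaling and length together and 7 without the libraries under 5000 genes. For olfactory bulb against cortex (1) the count was 2 or 3: 2 after rescaling, with quantile normalization, with the series term, without the libraries under 5000 genes and without the 2 libraries carrying olfactory bulb genes, and 3 with length adjustment, alone or with rescaling. For cortex against brainstem (2) it was 4 after rescaling and 1 with quantile normalization, length adjustment, no filter, the highest transcript, without the 2 libraries of lowest depth and without those under 5000 genes. The F test (1) called 0 after rescaling, with quantile normalization, length adjustment, a pseudocount of 0.1, the series term, without the 2 libraries of lowest depth and with rescaling and length together, and 2 with no filter or without the 2 libraries carrying olfactory bulb genes. The cause of these changes was not tested.

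Leaving out 1 library at a time gave 2 to 66 called in C, 53 to 71 in E, 67 to 75 in C against E, 7 to 49 against Neg, 1 to 3 for olfactory bulb against cortex, 1 to 3 for olfactory bulb against brainstem, 1 to 3 for cortex against brainstem and 0 to 3 in the F test.

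Signs turned as follows, in log2 differences. With rescaling and length adjustment together, C differences were -0.0197 for Atp5b, -0.43 for Cox4i1, -0.61 for Cox6a1, -0.22 for Cox6b1, -0.023 for Cox7a2 and -0.61 for Cox8a, and E differences were 1.21 for Atp5b, 0.50 for Cox4i1, 0.58 for Cox5a, 0.84 for Cox6a1, 1.16 for Cox6a2, 0.84 for Cox6b1, 0.84 for Cox6b2, 0.0476 for Cox7a1, 1.00 for Cox7a2, 1.01 for Cox8a, 1.43 for Ndufa4, 1.02 for Ndufa4l2, 0.98 for Sdha and 0.20 for Uqcrfs1. With length adjustment alone, Cox4i2 was at -0.26 in C, and in E Cox6a2 was at 0.67, Cox6b2 at 0.19, Cox7a1 at 0.20 and Ndufa4l2 at 0.54. With quantile normalization, Cox4i2 was at -0.0077 in C, and in E Cox6a2 was at 0.17, Cox6b2 at 0.097 and Ndufa4l2 at 0.052. With the series term, Cox4i2 was at -0.016 and Ndufa4l2 at 0.38 in C, and in E Cox6b2 was at 1.02, Cox7a1 at 0.17 and Cox8b at 0.12. In E, Cox4i2 was at -0.38 after rescaling and -0.52 with a pseudocount of 0.1. In the second series alone, Cox6a2 was at 0.18, Cox6b2 at 0.27 and Ndufa4l2 at 0. Without the 2 libraries carrying olfactory bulb genes Cox6a2 was at 0.038 in E. Leaving out single libraries, Cox4i2 ran from -0.56 to 0.68 and Cox6a2 from -0.41 to 0.038 in E.

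No paired analysis was possible because the labels give no replicate numbers and the numbers used only follow accession order. Depth limits most the values of replicate 1 of E in brainstem and in olfactory bulb. No counts were available, so no counting interval was given.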
